A study of Mus musculus with 12 samples.

Results

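Acta2, Actg2, Tagln, Cnn1, Myl9, Tpm1, Tpm2, Myh11, Lmod1 and Srf were examined as a group of contractile and myofibroblast genes. They were chosen by symbol, as the entries of the count table whose Ensembl identifier maps to these names, a rule that uses no measured value. The 10 genes are part of a table of 55573 genes, and all 10 passed the filter on low counts that left 19174 genes for testing. RNA was sequenced from fibroblasts (MEFs) cultured from 3 C57BL/6 mouse embryos at stage E13.5, named clones 1, 2 and 3. The MEFs of all groups carried a transgene that expresses Oct4, Sox2, Klf4 and Myc (together OSKM) when doxycycline is given, the factors that turn fibroblasts into induced pluripotent stem cells. All cells were grown for 72 h in medium for pluripotent stem cells. The groups were MEF (no doxycycline, no added vitamin B12), MEF+B12 (2 µM vitamin B12), OSKM (doxycycline at 1 µg/ml) and OSKM+B12 (doxycycline at 1 µg/ml and 2 µM vitamin B12), with 1 library of each clone in each group. Doxycycline was given only to the induced groups, so the drug and the factors cannot be told apart. The dose of doxycycline is the labelled one, and the published methods state milligrams in place of micrograms for cell culture.

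Smooth muscle cells contract when myosin motors pull on actin filaments that are dressed with tropomyosin, calponin and other actin-binding proteins. Fibroblasts that switch on part of this program, headed by smooth muscle alpha-actin, are called myofibroblasts, and cultured MEFs on rigid plastic are known to express it. Many of these genes are targets of serum response factor (SRF), which binds a short promoter element named the CArG box and takes its strength from cofactors, above all the myocardin family (MRTF-A, MRTF-B and myocardin), whose activity follows the state of the actin filaments. Loss of the mesenchymal program, including its contractile part, is a well-known early step of fibroblast reprogramming.

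Promoter sequence was looked up for the 10 genes because they share this regulator. The RefSeq promoter table (build GRCm38.p6) held 7 of them, namely Acta2, Cnn1, Myl9, Tpm1, Tpm2, Lmod1 and Srf. In the 250 bases before each start, a CArG box with at most 1 G or C among its 6 central bases was found in 3 of the 7 windows, those of Acta2, Myl9 and Srf, compared with 8.59% of 32851 windows of the same length. The exact consensus was present in 2 of the 7, Myl9 and Srf, compared with 1.47% of all windows. Both strands were searched, and the box reads as a CArG box on either strand. Tagln, Actg2 and Myh11 were not analysed here for sequence. The stretches around the boxes are given below, 5′ to 3′ on the strand of the gene, with the CArG box in capitals, to show which of the genes carry it close to the start and how exact it is. The Srf stretch is chr17:46556205-46556254 on the minus strand, bases 92 to 43 before the start, and holds a pair of exact boxes. The Myl9 stretch is chr2:156775293-156775384 on the plus strand, bases 171 to 80 before the start, with the exact box first and a box with 1 G second. The Acta2 stretches are chr19:34255438-34255467 and chr19:34255388-34255417 on the minus strand, bases 94 to 65 and 44 to 15 before the RefSeq start, and each box has 1 G or C in its centre. In the GENCODE annotation used for gene coordinates, Acta2 begins upstream, at chr19:34255590, so both stretches lie inside the annotated gene.
Srf: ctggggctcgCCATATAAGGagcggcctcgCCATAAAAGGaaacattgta
Myl9: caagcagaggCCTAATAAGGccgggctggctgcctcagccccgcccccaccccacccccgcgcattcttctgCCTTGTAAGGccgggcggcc
Acta2 distal: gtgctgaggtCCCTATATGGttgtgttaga
Acta2 proximal: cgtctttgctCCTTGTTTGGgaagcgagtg

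Library totals ranged from 56971244 to 79236795 counts. The reprogramming factors were used to check the labels. For Pou5f1, which encodes Oct4, clones 1 and 2 reached 18.5 to 20.7 CPM (counts per 1e6 counts of the library) with doxycycline, clone 3 reached 2.86 CPM in OSKM and 2.33 CPM in OSKM+B12, and without doxycycline the highest value was 0.468 CPM. With doxycycline Sox2 ranged from 13.3 to 17.8 CPM for clones 1 and 2, whereas clone 3 had 2.33 and 2.18 CPM, and no uninduced library exceeded 0.838 CPM. Myc rose by 0.88 on the log2 scale (edgeR adjusted p = 0.0206), with differences of 1.12 to 1.42 in clones 1 and 2 and of 0.11 in clone 3 in both B12 states. Klf4 went against the check. It ranged from 108 to 143 CPM over all libraries, was lower with doxycycline in every clone in both B12 states, and fell by 0.12 on the log2 scale (edgeR adjusted p = 0.0452, and 0.0538 without clone 3). Among induced libraries, those of clone 3 thus had the lowest levels of Pou5f1, Sox2 and Myc, and calls for induction are also given without it. The library titles of clone 1 carry another year than those of clones 2 and 3, so that the year and clone 1 cannot be told apart. Fibroblast markers (Col1a1, Col1a2, Col3a1, Pdgfra, Thy1, Dcn, Lum and Vim) summed to between 84769 and 136062 CPM, whereas the 14 striated muscle markers summed to between 6.52 and 13 CPM, with Myod1 at 0 counts in 7 of 12 libraries. In bulk RNA, fewer cells of a type and less RNA per cell cannot be told apart.

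The contractile genes spanned a wide range of expression. Levels were compared between genes per length, as RPKM (CPM per kilobase of exon). The median RPKM over the 12 libraries was 132 for Acta2, 110.1 for Tagln, 89.1 for Tpm1, 72.7 for Myl9, 36.2 for Tpm2, 11.9 for Srf, 6.69 for Actg2, 2.69 for Lmod1, 1.62 for Cnn1 and 0.185 for Myh11. This order of RPKM between neighbours held in all 12 libraries, except that Tpm1 was above Myl9 in only 9 of 12. Acta2 and Tagln thus ranked with the abundant non-muscle calponins Cnn3 and Cnn2 (median RPKM of 116 and 113), and below the cytoplasmic actins Actg1 and Actb (726 and 533) and the non-muscle tropomyosin Tpm4 (258). The late smooth muscle markers Myh11 and Cnn1 were near the low end, and the non-muscle myosin heavy chain Myh9 had a median RPKM of 43.96. Sequence shared with other genes could shift the counts of the cytoplasmic actins and of Tpm4. Of the 31-base words, 40.2% of those of Actg1, 23.5% of those of Actb and 16.0% of those of Tpm4 occur in other transcripts. At most 1.39% of the words of any of the 10 genes were shared, and Cnn2, Cnn3 and Myh9 were not examined for this.

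**Figure D1:**
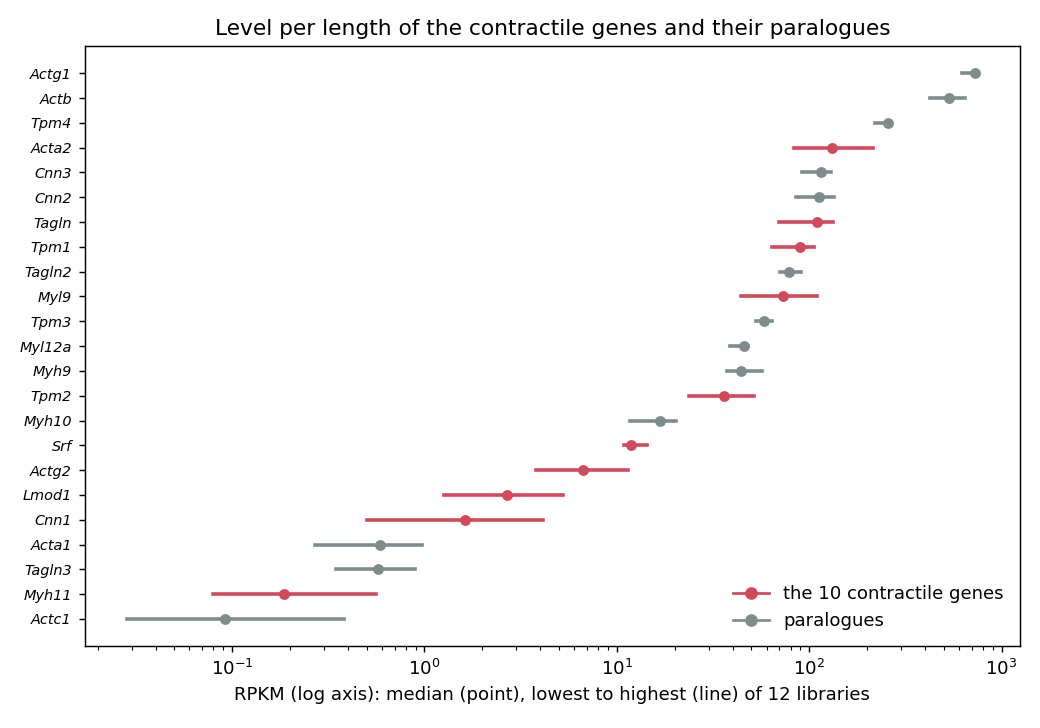
Level per length (RPKM, log axis) of the 10 contractile genes (red) and of their expressed paralogues (grey), as the median (point) and the lowest to highest value (line) over 12 libraries. Acta2, Tagln, Tpm1 and Myl9 sit among the abundant non-muscle paralogues, while Actg2, Lmod1, Cnn1 and Myh11 lie at medians of 6.69 RPKM or less.

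The clones differed in the level of these genes in every group, though for clone 1 the embryo and the year of its titles cannot be told apart. In MEF and in MEF+B12, all 10 genes were highest in clone 1, and with doxycycline 9 of 10 were without B12 and 8 of 10 with it. Clone 2 was lowest for 9 or all 10 of the genes in each group. Averaged over its 4 libraries, clone 1 exceeded clone 2 by 3.53-fold for Myh11, 3.36-fold for Cnn1, 2.18-fold for Actg2, 1.84-fold for Lmod1 and 1.70-fold for Acta2, but by only 1.19-fold for Tagln and for Srf. The comparisons that follow were therefore made within clones, with the clone as a term of the fit. This order of the clones was not tested, nor was it counted over all genes.

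**Figure D2:**
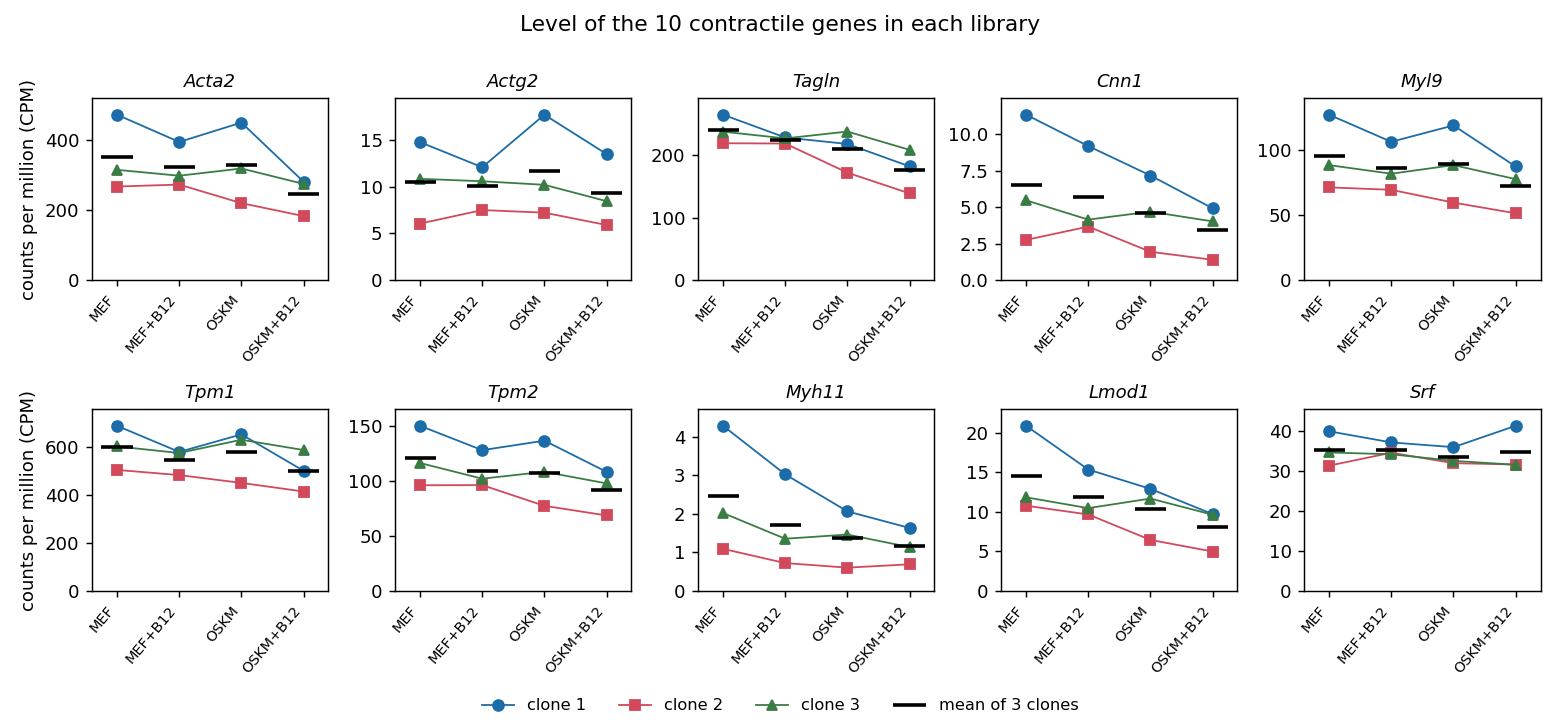
CPM of each of the 10 genes (a panel each, axis from 0) in the 4 groups, with 1 point and line per clone and a black bar for the mean of the 3 clones. Clone 1 (blue) lies highest in MEF and MEF+B12 in every panel, and the mean is lowest in OSKM+B12 for 9 of the 10 genes.

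The first question was how OSKM induction altered the contractile genes. On average over both B12 states, 5 of the 10 genes fell (Tagln, Cnn1, Tpm2, Myh11 and Lmod1), 0 rose, and 5 (Acta2, Myl9, Tpm1, Actg2 and Srf) did not pass the test, an edgeR quasi-likelihood fit over all 12 libraries with an adjusted p threshold of 0.05. In this comparison 9.73% of all genes tested passed in either direction, and 5.26% of all genes tested passed as lower. The median log2 fold change was -0.24 over the 10 genes and -0.0028 over all genes tested. The calls changed when a clone was left out. Without clone 3, 7 of the 10 genes passed as lower (Acta2 and Myl9 in addition, compared with 8.46% of all genes tested) with a median of -0.32, whereas 0 of the 10 passed without clone 1, which leaves the clones of a single year, and 0 without clone 2, with medians of -0.24 and -0.14 and with 7 and 5 of the 10 lower at an unadjusted p under 0.05. The unadjusted counts compare with 8.12% and 6.09% of all genes tested. In the fits without clone 1 and without clone 2, 0 of all genes tested passed as lower. The 0 of 10 in these fits thus cannot show on which clones the calls rest. The fit counts the pairs with and without B12 of an embryo as separate pairs, and when the counts of both were added so that each embryo gave a single pair, 0 of the 10 passed (0% of all genes tested passed as lower), 7 were lower at an unadjusted p under 0.05 (9.45%) and the median was -0.22. By DESeq2, and by edgeR with no filter on low counts, 7 of the 10 passed as lower, with Acta2 and Myl9 in addition, compared with 7.36% and 4.09% of all genes tested.

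Acta2, which encodes smooth muscle alpha-actin, the protein that defines myofibroblasts, and Actg2, which encodes enteric smooth muscle gamma-actin, are the actins of the group. Acta2 (ENSMUSG00000035783, chr19:34241090-34255590 in GRCm38) was at 474, 268 and 316 CPM in clones 1, 2 and 3 of MEF and at 396, 273 and 299 CPM in MEF+B12. Upon induction it was at 451, 220.2 and 319.6 CPM in OSKM and at 282, 183 and 275 CPM in OSKM+B12. The groups overlapped throughout, and OSKM+B12 held the lowest value of each clone. The averaged change with induction was -0.25 ± 0.08 on the log2 scale (± is the standard error of the fit, adjusted p = 0.0609), and without clone 3 it was -0.35 ± 0.08 (adjusted p = 0.0189).

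Actg2 (ENSMUSG00000059430, chr6:83512905-83536265) had differences of both signs. It was at 14.8, 6.05 and 10.9 CPM in MEF, 12.1, 7.51 and 10.6 in MEF+B12, 17.8, 7.23 and 10.2 in OSKM, with 13.52, 5.90 and 8.46 in OSKM+B12. Clones 1 and 2 were both 0.26 higher on the log2 scale in OSKM than in MEF, clone 3 was lower, and the groups overlapped. The averaged change was -0.01 ± 0.09 (adjusted p = 0.941), without clone 3 it was 0.09 ± 0.11 (adjusted p = 0.633), and its sign changed with library totals in place of TMM scaling.

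Tagln (ENSMUSG00000032085, chr9:45929619-45936058) encodes transgelin, or SM22 alpha, an actin-bundling protein used as an early smooth muscle marker. It was at 265, 219 and 238 CPM in MEF and at 228, 219 and 227 CPM in MEF+B12. In the induced groups it was at 218, 172 and 238 CPM (OSKM) and at 182, 139 and 208 CPM (OSKM+B12). OSKM+B12 did not overlap with either uninduced group, whereas OSKM overlapped with MEF through clone 3. Tagln fell by 0.29 on the log2 scale, with a standard error of 0.07 and an adjusted p of 0.0270, and without clone 3 by 0.41 (adjusted p = 0.00318).

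Cnn1 (ENSMUSG00000001349, chr9:22099216-22109630) encodes calponin 1, which binds actin and restrains the myosin ATPase. Its levels were 11.4, 2.75 and 5.47 CPM in MEF, 9.20, 3.67 and 4.15 in MEF+B12, 7.18, 1.94 and 4.69 in OSKM, with 4.92, 1.38 and 4.02 in OSKM+B12. The spread between embryos exceeded the change, and all groups overlapped, yet each clone was lower with doxycycline than without in both B12 states. The change was -0.61 ± 0.15 (adjusted p = 0.0313), and -0.86 ± 0.13 without clone 3 (adjusted p = 0.00344). In clone 2 with B12 it reached -1.41, the largest difference with induction of any of the 10 genes within a clone.

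Lmod1 (ENSMUSG00000048096, chr1:135324807-135368065) encodes leiomodin 1, which starts new actin filaments in smooth muscle. It was at 20.8, 10.8 and 11.8 CPM in MEF, at 15.3, 9.66 and 10.5 CPM in MEF+B12, at 12.9, 6.45 and 11.7 CPM in OSKM and at 9.70, 4.98 and 9.63 CPM in OSKM+B12. MEF and OSKM+B12 did not overlap, and the other groups did. Lmod1 fell by 0.52 on the log2 scale on average (standard error 0.11, adjusted p = 0.0248), and without clone 3 by 0.76 (adjusted p = 0.000596).

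The tropomyosins, which lie along the actin filament and gate access of myosin, differed in their calls. Tpm1 (ENSMUSG00000032366, chr9:67022590-67049406), also expressed as non-muscle isoforms from the same gene, was at 689, 505 and 603 CPM in MEF, 579.8, 483 and 575 in MEF+B12, 653, 451 and 631 in OSKM, with 501, 415 and 588 in OSKM+B12. Its averaged change was -0.10 ± 0.05 (adjusted p = 0.293), with clone 3 slightly higher in both induced groups, and without clone 3 it was -0.17 ± 0.06 (adjusted p = 0.0799). Tpm2 (ENSMUSG00000028464, chr4:43514711-43523765) was at 150.4, 96.3 and 117 CPM in MEF, 128, 96.4 and 102 in MEF+B12, 137, 77.6 and 109 in OSKM, with 108, 68.8 and 97.99 in OSKM+B12. Groups overlapped for both genes, but Tpm2 was lower with induction in each of the 3 clones in both B12 states. Tpm2 fell by 0.22 on the log2 scale (standard error 0.06, adjusted p = 0.0344), and without clone 3 by 0.29 (adjusted p = 0.0173). With library totals in place of TMM scaling, it was the one gene of the 5 that no longer passed.

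The myosin subunits were Myl9, the regulatory light chain whose phosphorylation switches on contraction, and Myh11, the smooth muscle myosin heavy chain, the most specific marker of mature smooth muscle. Myl9 (ENSMUSG00000067818, chr2:156775420-156781658) was at 127, 71.2 and 88.3 CPM in MEF, 106, 69.4 and 81.7 in MEF+B12, 119, 59.5 and 88.4 in OSKM, with 87.3, 51.3 and 77.6 in OSKM+B12. The groups overlapped, and its averaged change was -0.19 ± 0.06 (adjusted p = 0.0565), compared with -0.27 ± 0.06 without clone 3 (adjusted p = 0.0216). Myh11 (ENSMUSG00000018830, chr16:14194535-14291372) was scarce, with between 35 and 247 counts per library. Its levels were 4.28, 1.09 and 2.02 CPM in MEF, 3.02, 0.723 and 1.35 in MEF+B12, 2.06, 0.605 and 1.46 in OSKM, with 1.63, 0.691 and 1.14 in OSKM+B12. Each clone was lower upon induction in both B12 states, though the groups overlapped because of the spread between embryos. Myh11 fell by 0.62 on the log2 scale (standard error 0.13, adjusted p = 0.0234), the largest averaged change of the 10 genes over all libraries, and without clone 3 by 0.77 (adjusted p = 0.0154).

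Srf itself (ENSMUSG00000015605, chr17:46548329-46556175), the transcription factor that binds the CArG boxes shown above, varied least of the 10. It was at 40.0, 31.4 and 34.7 CPM in MEF, 37.2, 34.7 and 34.3 in MEF+B12, 36.1, 32.0 and 32.6 in OSKM, with 41.4, 31.7 and 31.6 in OSKM+B12. The highest library exceeded the lowest by only 1.32-fold, compared with 8.22-fold for Cnn1 and 7.07-fold for Myh11. The averaged change with induction was -0.05 ± 0.04 (adjusted p = 0.507), and -0.02 ± 0.06 without clone 3 (adjusted p = 0.816).

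When the B12 states were tested apart, no gene of the 10 passed by edgeR over the 12 libraries, whereas some did by other fits. In induction without B12, 0 of 10 genes passed by edgeR, compared with 0.073% of all genes tested, all of which were higher. At an unadjusted p under 0.05, 5 of the 10 were lower (9.91% of all genes tested), and by DESeq2 1 was (Myh11, compared with 1.58%). Without clone 3, 2 passed as lower by edgeR (Myh11 and Lmod1, compared with 3.57%), as did the same 2 with no filter on low counts (1.05%). In induction with B12, 0 passed by edgeR (0.104% of all genes tested, all of them higher). Of the 10, 7 were lower at an unadjusted p under 0.05 (8.17%) and 4 were lower by DESeq2 (Acta2, Tagln, Cnn1 and Lmod1, compared with 1.20%). Without clone 3, the same 4 passed as lower by edgeR (2.76%), as they did with no filter (0.916%). The median log2 fold change of the 10 genes was -0.15 without B12 and -0.32 with B12. These 2 comparisons were not shown to differ, since the interaction of B12 and induction passed for 0 of the 10 genes by edgeR and by DESeq2 (0% of all genes by either). For the interaction, 0 of the 10 were lower at an unadjusted p under 0.05, compared with 0.615% of all genes tested, and the lowest unadjusted p was 0.0880 for Acta2.

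**Figure D3:**
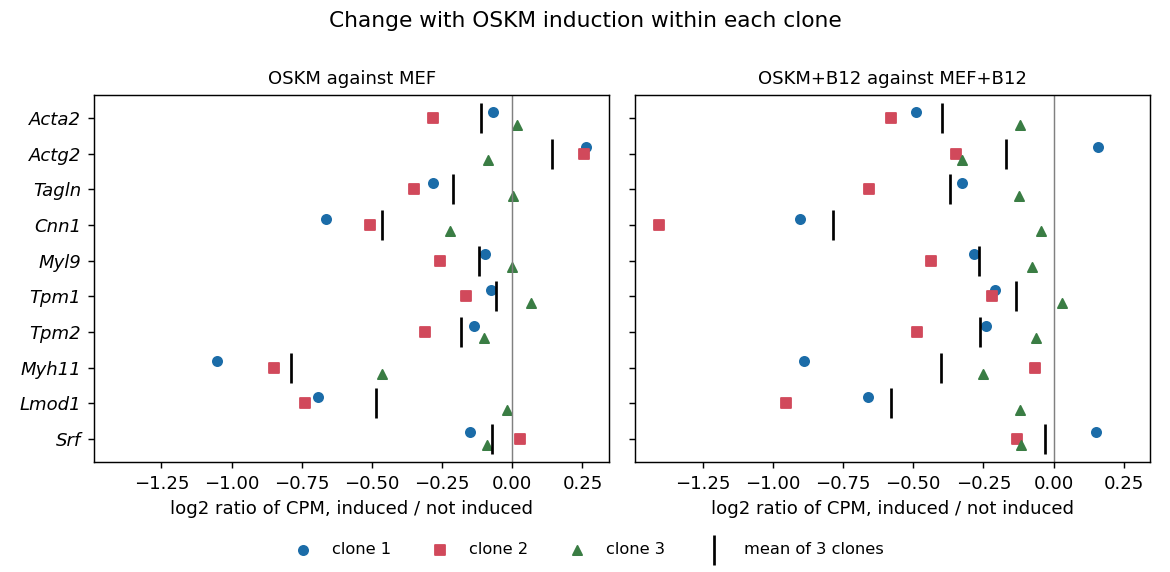
Log2 ratio of CPM between the induced and the uninduced library of each clone, without B12 (left) and with B12 (right), for the 10 genes. Points are clones and the black bar is the mean of the 3, and clone 3 (green) lies closest to 0 for Lmod1, with -0.02 without B12 and -0.12 with B12, against -0.66 to -0.95 in clones 1 and 2.

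The response to induction was next compared between the embryos. Clone 3, in which the factors were expressed at a lower level, had median log2 differences over the 10 genes of -0.05 without B12 and -0.12 with B12. In clone 1 the medians were -0.14 and -0.31, and in clone 2 they were -0.30 and -0.46. The difference between clones was tested with an F test in which the pairs with and without B12 of each embryo supply the spread. By this test 1 of the 10 genes passed, Lmod1 (adjusted p = 0.0271), compared with 2.15% of all genes tested. Tagln followed at an adjusted p of 0.0600, and by DESeq2 both passed (3.13% of all genes tested). With no filter on low counts 4 passed (Acta2, Tagln, Cnn1 and Lmod1, compared with 3.8%). For Tagln, the differences without B12 were -0.28, -0.35 and 0.00 in clones 1, 2 and 3, and with B12 they were -0.33, -0.66 and -0.12. Without clone 3 none of the 10 passed, and 0 of all 19231 genes tested did. Without clone 2 none of the 10 passed either, compared with 195 of 19314 genes. Without clone 1 there were 5 (Acta2, Tagln, Myl9, Tpm1 and Lmod1, compared with 3.79% of all genes tested). Whether the lower level of the factors in clone 3 takes part in this was not tested.

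The second question was what vitamin B12 did. All genes but Srf had negative log2 fold changes with B12 on average over both states, but 0 of the 10 passed by edgeR, compared with 3.84% of all genes tested, most of which were higher. At an unadjusted p under 0.05, 7 of the 10 were lower (Acta2, Tagln, Myl9, Tpm1, Tpm2, Myh11 and Lmod1), compared with 6.71% of all genes, and by DESeq2 2 were lower (Acta2 and Myl9, compared with 0.788%). By edgeR with no filter on low counts the same 2 passed (0.272%). Without clone 1, 1 of the 10 was lower at an unadjusted p under 0.05 (4.83%). The count was 9 without clone 2 (666 of 19314 genes) and 6 without clone 3 (667 of 19231 genes). The nearest to the threshold was Myl9, with -0.21 ± 0.06 (adjusted p = 0.0728). The median was -0.19 over the 10 genes and -0.01 over all genes tested. When each embryo gave a single pair, from the added counts of its libraries, 4 of the 10 genes passed as lower, compared with 0.77% of all genes tested. They were Lmod1 (-0.30 on the log2 scale, adjusted p = 0.0182), Tagln (-0.16, adjusted p = 0.0269), Myl9 (-0.20, adjusted p = 0.0419) and Tpm2 (-0.17, adjusted p = 0.0470). This fit was added after the data had been seen.

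Most differences with B12 were negative in uninduced as in induced cells. Within the clones, 25 of 30 pairs were lower in MEF+B12 than in MEF, and 5 of the 10 genes were lower in all 3 clones. In OSKM+B12 against OSKM, 28 of 30 pairs were lower, and 8 of the 10 genes in all 3 clones, the exceptions being Myh11 and Srf. The share of all genes with such signs was not counted. The genes of a clone come from the same libraries, so these pairs are not separate observations. For Acta2 the log2 differences were -0.68, -0.27 and -0.21 in clones 1, 2 and 3, and for Lmod1 they were -0.41, -0.37 and -0.28. In clone 3, where induction moved these genes least, the median difference with B12 was -0.20, compared with -0.39 in clone 1 and -0.24 in clone 2. By edgeR 0 of the 10 passed in OSKM+B12 against OSKM (1.06% of all genes tested, all but 3 of them higher). At an unadjusted p under 0.05, 6 of the 10 were lower (3.66%), and by DESeq2 2 were lower (Acta2 and Myl9, compared with 0.0782%). With no filter, Acta2 alone passed by edgeR (0.0181%). The count of 6 at an unadjusted p rested in part on clone 1, since it was 3 without the OSKM library of clone 1 (2.4% of all genes tested) and 1 without the whole clone (1.38%), with 0 of the 10 past the threshold in both. The largest fitted change was that of Cnn1, with -0.40 ± 0.21 (adjusted p = 0.570), followed by Acta2, with -0.39 ± 0.11 (adjusted p = 0.179).

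In uninduced cells the median log2 fold change with B12 was -0.12, compared with -0.27 in induced cells. The B12 effect was not shown to differ between these states. Their interaction passed for 0 of the 10 genes by edgeR (0% of all genes tested), and the fitted change of Myh11 was larger in uninduced cells (-0.54 against -0.22). In MEF+B12 against MEF 0 of the 10 genes passed by edgeR (1.38% of all genes tested, all but 1 of them higher). At an unadjusted p under 0.05, 1 of the 10 was lower (3.82%), and none was by DESeq2 (0.0626%). That gene was Myh11, at -0.54 ± 0.18 (adjusted p = 0.250), with differences of -0.50, -0.59 and -0.58 in clones 1, 2 and 3. It passed when only the MEF and MEF+B12 libraries were fitted (adjusted p = 0.0426, compared with 0.618% of all genes tested as lower). In clone 2 the median difference in this state was -0.0004 and 5 of 10 genes were lower, whereas all 10 were lower in clones 1 and 3.

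**Figure D4:**
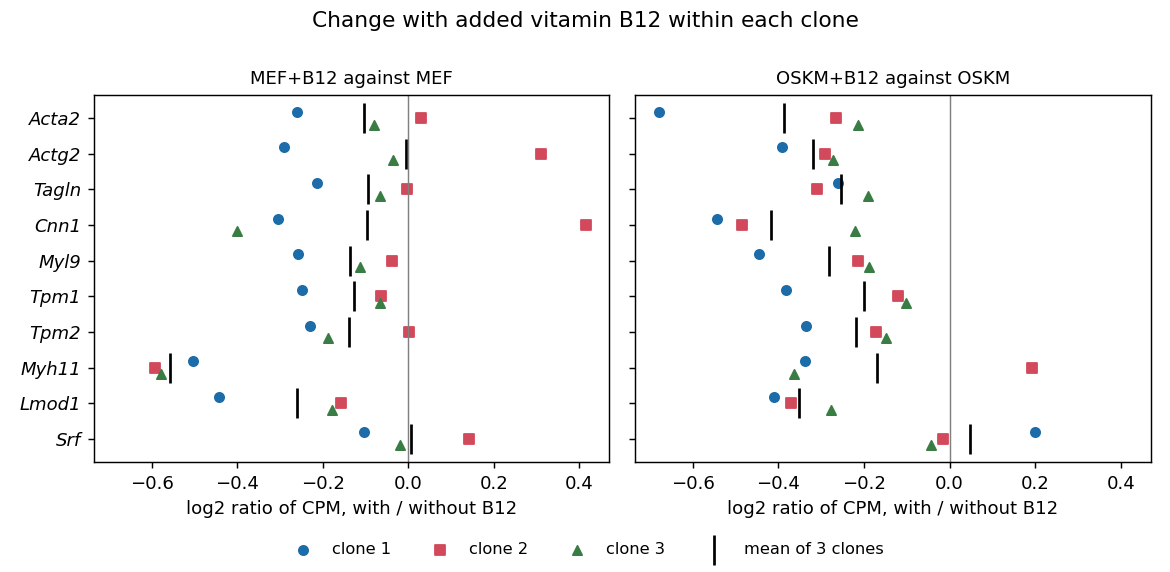
Log2 ratio of CPM between the library with and the library without vitamin B12 of each clone, in uninduced (left) and induced cells (right), for the 10 genes. Points are clones and the black bar is the mean of the 3. Of 30 points in each panel, 25 lie below 0 in uninduced cells and 28 in induced cells.

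Some markers of other cell types moved alongside these comparisons. All 8 macrophage markers (Adgre1, Csf1r, Cd68, Ptprc, C1qa, C1qb, Lyz2 and Fcer1g) rose with B12 on average, by 0.43 to 0.71 on the log2 scale. They summed to between 1146 and 2161 CPM in MEF, 1672 and 2752 in MEF+B12, 1179 and 1953 in OSKM, 1759.6 and 2174 in OSKM+B12, with none at 0 in any library. With induction, Adgre1 and Csf1r of this list fell, and so did Ttn of the striated muscle markers. Among mural cell markers, Pdgfrb, Kcnj8 and Abcc9 fell with induction, 3 of 7 tested, and the list of 8 summed to between 442 and 606 CPM in MEF, 419 and 538 in MEF+B12, 349 and 551 in OSKM, 321 and 498 in OSKM+B12, with Higd1b at 0 in all 12 libraries. Of 6 endothelial markers 3 were tested, and Cdh5 and Tek rose with induction while Kdr did not pass. Of 6 epithelial markers 4 were tested, and Cdh1, Krt8 and Krt14 rose while Krt18 did not pass. Of those not tested, Emcn, Cldn5 and Cldn4 were at 0 counts in 7, 9 and 9 of 12 libraries. Pecam1 and Epcam reached at most 0.279 and 0.139 CPM. The endothelial sum was mostly Tek, at 34.2 to 139 CPM. The sums in OSKM were 52.9 to 145 CPM (endothelial) and 1.23 to 11.4 CPM (epithelial), both lowest in clone 3, compared with 41.8 to 46.5 CPM and 1.04 to 1.78 CPM in MEF. Col1a1, Col1a2 and Pdgfra fell with induction among the 8 fibroblast markers, and with B12 none of the 8 passed. Without clone 3, 4 of the 8 fibroblast, 5 of 7 mural, 2 of 8 macrophage and 2 of 8 striated muscle markers tested passed as lower with induction, and 2 of 4 endothelial, 3 of 4 epithelial and 1 striated muscle marker as higher. The part of these cell types in the levels of the contractile genes was not tested.

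The cofactors of SRF did not pass in any comparison over the 12 libraries. Of 6 genes, 5 were tested, since Myocd was too low. With induction, Mrtfa (MRTF-A) changed by -0.13 ± 0.04 (adjusted p = 0.0539) and the ternary complex factor Elk3 by -0.14 ± 0.04 (adjusted p = 0.0649), while Mrtfb, Elk1 and Elk4 had adjusted p-values between 0.258 and 0.899. The median over the 5 was -0.11 with induction and -0.03 with B12. Without clone 3, both Mrtfa (-0.17, adjusted p = 0.0349) and Elk3 (-0.21, adjusted p = 0.0150) passed as lower with induction.

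Of 11 further smooth muscle genes 10 were tested, and 2 fell with induction. They were Mylk, the kinase that phosphorylates the myosin light chain, with -0.39 ± 0.08 (adjusted p = 0.0234), and Aoc3, a surface amine oxidase of smooth muscle, with -0.23 ± 0.07 (adjusted p = 0.0494), and without clone 3 the same 2 passed, at -0.55 and -0.35. The largest of the others was Synpo2, with -0.23 ± 0.08 (adjusted p = 0.110). The median of the list was -0.09 with induction and -0.13 with B12, and none passed with B12, the nearest being Cald1 (caldesmon) with -0.14 ± 0.04 (adjusted p = 0.0564).

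Of 9 SRF targets of the actin cytoskeleton, 3 fell with induction. These were Fhl2, a LIM protein that partners SRF, with -0.31 ± 0.05 (adjusted p = 0.0150), Palld, the stress fibre protein palladin, with -0.21 ± 0.04 (adjusted p = 0.0200), and Actn1, the actin crosslinker alpha-actinin 1, with -0.24 ± 0.05 (adjusted p = 0.0253), and without clone 3 the same 3 passed, at -0.38, -0.26 and -0.32. With B12 the only call was Vcl, the focal adhesion protein vinculin, which fell by 0.18 on the log2 scale (adjusted p = 0.0358). In contrast, of the 7 targets of the immediate early class (Fos, Fosb, Egr1, Egr2, Ier2, Junb and Mcl1) none passed with induction, with or without clone 3, or with B12. Their median was -0.04 with induction and 0.10 with B12, the latter of opposite sign to that of the contractile genes. Fos, for example, changed by -0.24 ± 0.11 with induction (adjusted p = 0.175) and by 0.30 ± 0.11 with B12 (adjusted p = 0.195).

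Among 16 paralogues of the contractile genes, which include the striated muscle genes Acta1, Actc1, Lmod2 and Lmod3, 13 were tested and 3 fell with induction. They were Myh9 (-0.26 ± 0.06, adjusted p = 0.0242), Cnn2 (-0.19 ± 0.04, adjusted p = 0.0256) and Tagln2 (-0.14 ± 0.03, adjusted p = 0.0336), and without clone 3 these passed along with the light chain Myl12a (-0.16, adjusted p = 0.0396). The cytoplasmic actin Actb changed by -0.12 ± 0.05 (adjusted p = 0.133). With B12 the transgelin paralogue Tagln2 rose by 0.16 ± 0.03 (adjusted p = 0.0299), whereas Tagln itself was at -0.17 ± 0.07 (adjusted p = 0.220). The median of the list was -0.10 with induction and -0.04 with B12.

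The matrix and surface genes that accompany the myofibroblast state gave 5 calls of 10 with induction, in both directions. The matrix glycoprotein Tnc fell by 0.55 (adjusted p = 0.0172), the surface protein Lrrc15 by 0.51 (adjusted p = 0.0181), the matricellular factor Ccn2 by 0.32 (adjusted p = 0.0223) and the secreted protein Cthrc1 by 0.40 (adjusted p = 0.0241), all on the log2 scale. In contrast, Fap, a surface protease of activated fibroblasts, rose by 0.23 (adjusted p = 0.0391). Without clone 3 these 5 passed in the same directions, and Postn, Lox and Sparc also passed as lower. The median was -0.20 with induction and -0.14 with B12, where none of the 10 passed.

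**Figure D5:**
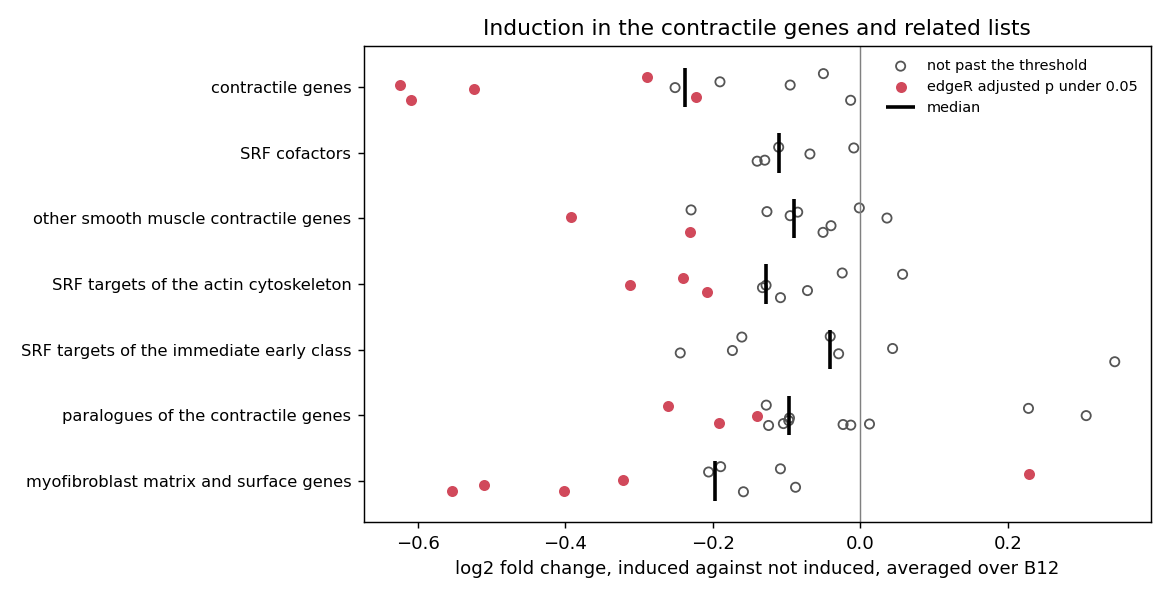
Log2 fold change with induction, averaged over both B12 states, of the tested genes of 7 lists (points, filled where the edgeR adjusted p is under 0.05), with the median of each list as a black bar. The median was -0.24 in the contractile genes and -0.20 in the myofibroblast matrix and surface genes, and the others lay between -0.13 and -0.04.

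Finally, the genes with the most similar profile were sought. Log2 CPM was centred on each clone, so that the points are 12 libraries that share their clones in sets of 4, and compared with the mean of the 10 genes over 11957 expressed genes. The highest Pearson correlations were those of Fstl3 (0.987), a secreted activin antagonist, Cnn2 (0.973), Igfbp7 (0.973), a secreted IGF-binding protein, Cdc42ep1 (0.966), an effector of the GTPase Cdc42, and Cacng7 (0.964), a calcium channel gamma subunit. Within the group, the correlation of each gene with the mean of the others was 0.978 for Tpm2, 0.963 for Tagln, 0.958 for Myl9 and for Lmod1, 0.933 for Acta2, 0.927 for Cnn1, 0.874 for Tpm1 and 0.712 for Myh11. Actg2 (0.289) and Srf (0.0907) stood apart from the other 8.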

How the data were processed

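RNA-seq was measured in 12 libraries, 4 groups of 3 embryos. The authors prepared stranded libraries from poly(A) RNA, sequenced each on several flow cells, aligned reads to mm10 (GRCm38) with STAR (version 2.5.2 per the submitters' processing notes) and counted them per gene with featureCounts. The deposited values are raw counts, not normalized. The counts carry no molecular identifiers. Symbols and coordinates (1-based) came from GENCODE M21, which matched 55480 of 55573 identifiers. CPM used library totals scaled by TMM. RPKM was CPM per kilobase of summed exon length.

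The test was edgeR (version 4.0.16) with glmQLFit and glmQLFTest after filterByExpr, with group and clone as terms and Benjamini-Hochberg adjustment over 19174 genes. The numbering of the clones pairs the libraries, since the 4 groups hold the same embryos, and libraries of a clone deviated together (correlations of 0.270 to 0.687 over 18 pairs, against at most 0.170 between clones). The difference between clones was an F test on the product of clone and doxycycline, in a fit that also held both terms and B12 in each state. The biological coefficient of variation was 8.04%. The fits were also run on simulated counts. Those counts held no difference between clones and no effect of B12, so that run does not test how the fits handle either. Alternatives were DESeq2 (version 1.42.0), DESeq2 size factors, library totals, no filter, at least 10 counts in every library, the compared libraries alone, no clone block, leaving out each clone or the OSKM library of clone 1, and, added after the data had been seen, a single pair per clone. All 10 genes are named. Of each related list, up to 5 genes are given with values, those past the threshold first (smallest adjusted p) and then the largest change. Cases chosen outside this rule after their values were seen are Cald1, Mrtfb, Elk1, Elk4, Actb, Fos, Myl12a, Postn, Lox and Sparc, and the paralogues named for their level. The 5 genes of most similar profile had a mean of at least 1 on the log2 CPM scale and an official symbol. Myl12b was left out because its symbol matches more than 1 identifier. The 10 genes and the lists were chosen with earlier results of these data known.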

Additional observations from a re-analysis of the deposited data

Results flagged for a closer look

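The response to induction differed between the 3 clones for Lmod1 (adjusted p = 0.0271, F test of the product of clone and state). Among the related lists the same test passed for Cthrc1 (0.0125), Lrrc15 (0.0178) and Tnc (0.0465) of the matrix and surface genes, for the cytoskeletal gene Zyx (0.0338) and for the integrin subunit Itga8 (0.0393), all as edgeR adjusted p-values. In all 6 genes the smallest absolute difference was in clone 3, in both B12 states. Lmod1, Cthrc1, Lrrc15 and Tnc were lower with induction in each of the 3 clones. Zyx was higher with induction in clone 1 (0.39 without and 0.26 with B12 on the log2 scale) and lower in clones 2 and 3, and Itga8 was lower in clone 1 (-0.35 and -0.52) and higher in clone 2 (0.21 and 0.44).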

How the results depend on the processing

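The count of the 10 genes past the threshold depended on the fit. For induction averaged over B12 (5 over the 12 libraries), it was 7 by DESeq2 and 7 with no filter, 0 with no replicate block, that is without the clone as a term, 0 with a single pair per clone, and between 0 and 7 without each clone. Without the OSKM library of clone 1 it was 1 (Tpm2), compared with 378 of 19499 genes that passed as lower. Without the block 0 of the 10 passed in the 7 comparisons it was run for. In that fit 0 of all 19174 genes tested passed either, except for B12 averaged over states, where 90 did, all of them higher. DESeq2 gave 1 for induction without B12, 4 with B12, 2 for B12 in OSKM, 2 for B12 averaged over states and 2 for the difference between clones. The fit with no filter gave 2, 4, 1, 2 and 4 in the same order, where 1.05%, 0.916%, 0.0181%, 0.272% and 3.8% of 33090 genes passed (as lower in the first 4). B12 averaged over states gave 4 with a single pair per clone, and B12 in MEF gave 1 when only the libraries compared were fitted. The difference between clones gave 3 without the OSKM library of clone 1, compared with 838 of 19499 genes. Leaving out each clone gave between 0 and 2 for induction without B12, between 0 and 4 with B12, between 0 and 5 for the difference between clones, and 0 for the remaining comparisons. The cause of these changes was not tested. Over the fits that leave out a clone, log2 fold changes that turned in sign ranged from -0.134 to 0.0862 for Actg2 in averaged induction, from -0.155 to 0.130 for Actg2 and from -0.0587 to 0.0663 for Srf in B12 in MEF, and from -0.0311 to 0.107 for Srf in B12 in OSKM, and from -0.0974 to 0.134 for the interaction of Srf. With library totals, the calls of all genes for averaged induction numbered 2121, of which 631 were lower, against 1009 of 1865 with TMM, and the median of the 10 genes was -0.19. DESeq2 size factors and the minimum of 10 counts left every count of the 10 genes as it was. Summed levels in each group moved by less than 1 SD between clones with library totals. The TMM factors ranged only from 0.934 to 1.06, so such a move could hardly exceed that SD. The clones are 3 in number, which limits what any test of the embryo as the unit can resolve.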
